A study of Arabidopsis thaliana with 9 samples.

Results

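FDH and AT4G17260 encode the formate dehydrogenase and the L-lactate dehydrogenase of Arabidopsis thaliana, and their probe sets were followed on 9 Affymetrix expression arrays of somatic embryo cultures. The members were taken by gene name from the array annotation. FDH was represented by probe set 246595_at, tied by its gene identifier to AT5G14780, and AT4G17260 by probe set 245324_at. Together they are 2 of the 22746 probe sets that are not array controls, and 2 of the 13286 genes named there by a single-gene probe set. FDH is also listed as an older name of another gene, KCS10, which has 0 probe sets in the annotation. Both genes were chosen with their levels on these arrays already known, FDH for its lower level in 35S:AGL15 and AT4G17260 for its higher level in both altered genotypes. Their values in every comparison between genotypes are therefore a description and carry no test.

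Formate dehydrogenase is a mitochondrial enzyme that oxidises formate to CO2 and passes the electrons to NAD. Plants form formate from several sources, among them one-carbon folate metabolism, the splitting of formyl-CoA and the oxidation of formaldehyde and methanol, and in potato the enzyme is known to accumulate in leaves under stress. L-lactate dehydrogenase is a cytosolic enzyme that reduces pyruvate to lactate with NADH, which regenerates NAD for glycolysis when oxygen is short, and its gene is known as a low-oxygen response gene of Arabidopsis roots. The proteins belong to different dehydrogenase families. Formate dehydrogenase is a relative of the D-2-hydroxyacid dehydrogenases, which include hydroxypyruvate reductase, and L-lactate dehydrogenase is a relative of malate dehydrogenase.

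The 3 genotypes, all in the Columbia ecotype, were wild type, 35S:AGL15 and an agl15-4 agl18-1 double mutant, with 3 arrays each that the labels call biological replicates. AGL15 and AGL18 are related MADS-domain transcription factor genes. In 35S:AGL15 a viral promoter active in most cells expresses AGL15 constitutively, and the double mutant carries insertions in both genes. Seeds of all genotypes germinated in shaken liquid MS medium with 2% sucrose, 10 mM MES buffer and 4.5 µM of the synthetic auxin 2,4-D, in days of 23 h light and 1 h dark, and tissue was frozen on day 10. By the series description, somatic embryos form at the shoot apex more often in 35S:AGL15 and less often in the double mutant than in wild type. The labels do not name the transgenic line or the number of plants in a culture. RNA was taken from whole cultures, so fewer cells of a type and less RNA per cell cannot be told apart.

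The background level of an array was set as the brightest of 27 probe sets for Bacillus control transcripts and ran from 13.7 to 40.5 intensity units. Between 69.2% and 84.5% of probe sets lay above it, and log2 intensities of replicate arrays correlated at 0.943 to 0.964. AGL18, the mutated gene with a probe set, read 171 to 189 in wild type, 62.6 to 113 in the double mutant and 52.4 to 90.9 in 35S:AGL15, all above background. AGL15 has no probe set in the annotation and was not analysed here. On the deposited scale, where all arrays share a trimmed mean, the spike-in controls, bacterial and phage transcripts, were not alike. Relative to the wild type mean they stood at 0.989, 0.920 and 1.62 in 35S:AGL15 replicates 1, 2 and 3, and at 2.11, 1.65 and 1.31 in double mutant replicates 1, 2 and 3. The 3′ to 5′ ratio of the actin control, a sign of RNA quality, was 1.33 to 1.49 in wild type and 1.34 to 1.48 in 35S:AGL15, but 2.31, 1.68 and 1.40 in double mutant replicates 1, 2 and 3.

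FDH was low in every 35S:AGL15 culture and high in every wild type culture. Its intensity was 2484, 1922 and 1853 in wild type replicates 1, 2 and 3, a mean of 2086 ± 346 (SD, n = 3). In 35S:AGL15 it was 163, 320 and 169, a mean of 217 ± 88.9 (SD, n = 3). The double mutant had 797, 2222 and 1676, a mean of 1565 ± 719 (SD, n = 3). All 9 values lay above the background of their array. The order of the means was wild type, then the double mutant, then 35S:AGL15. The first neighbours in that order overlapped and the second did not.

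Against wild type, FDH in 35S:AGL15 was 10.0-fold lower, a log2 difference of −3.33 with a standard error of 0.42, and each 35S:AGL15 array lay below each wild type array. Groups that do not overlap in the lower direction are common on these arrays, 14.8% of all probe sets in this comparison, and 2.31% of probe sets were called lower by limma at an adjusted p under 0.05. By the size of its difference FDH stood near the end of the distribution, since 44 of the 22746 probe sets, or 0.193%, had a more negative one. As this contrast was used to choose FDH, nothing is read from that place.

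Against the double mutant, FDH in 35S:AGL15 was 6.97-fold lower (log2 difference −2.80, SE 0.42), again without overlap, in a comparison where groups of 13.2% of probe sets lay apart in that direction. The double mutant itself stood close to wild type. Its log2 difference from wild type was −0.52 (SE 0.42), a 1.44-fold lower mean, with overlap, in a comparison where groups of 30.3% of probe sets lay apart in the lower direction, and in 2 of the 9 pairs of arrays the double mutant value was the higher. Both comparisons of 35S:AGL15 rest on the same 35S:AGL15 arrays, and both comparisons with wild type on the same wild type arrays.

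The spread of FDH differed between the genotypes. The coefficient of variation over 3 arrays was 16.6% for wild type, 41.0% for 35S:AGL15 and 45.9% for the double mutant. Double mutant replicate 1 had the lowest FDH value of its group. Its GAPDH 3′ to 5′ ratio was not the highest of the 9 arrays, but its spike-in controls, actin 3′ to 5′ ratio and background were. Their part in that FDH value was not tested. Without this array the log2 difference of the double mutant from wild type was −0.10, and without double mutant replicate 2 it was −0.84.

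**Figure D1:**
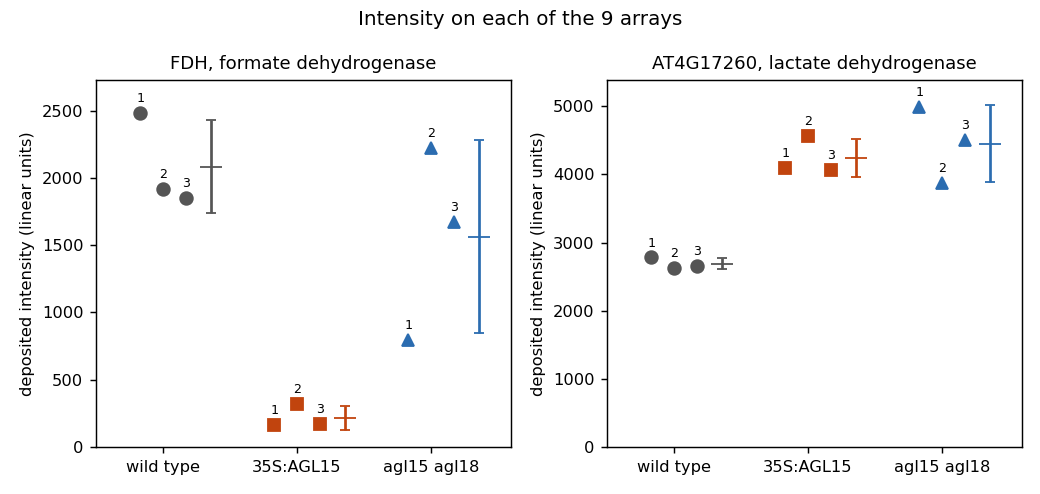
Deposited intensity (linear units, axis from 0) of FDH and AT4G17260 on each of the 9 arrays by genotype, with the replicate number above each point and the mean ± SD (n = 3) beside each group. FDH lies between 163 and 320 in 35S:AGL15 and at 1853 or higher in wild type, whereas AT4G17260 is at most 2782 in wild type and at least 3871 in both altered genotypes.

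AT4G17260 was low in wild type and higher in both altered genotypes. In wild type its intensity was 2782, 2630 and 2660, a mean of 2691 ± 80.2 (SD, n = 3). In 35S:AGL15 it was 4095, 4564 and 4064, a mean of 4241 ± 280 (SD, n = 3). The double mutant had 4988, 3871 and 4501, a mean of 4453 ± 560.0 (SD, n = 3). No array of either altered genotype reached down to the wild type range, while the altered genotypes overlapped each other.

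The difference of AT4G17260 in 35S:AGL15 from wild type was 1.57-fold, a log2 difference of 0.65 with a standard error of 0.16. For the double mutant it was 1.65-fold, a log2 difference of 0.72 (SE 0.16). Between 35S:AGL15 and the double mutant the log2 difference was −0.06 (SE 0.16), with 35S:AGL15 higher in 4 of 9 pairs of arrays. These sizes were not unusual on the arrays. More positive differences were found for 9.01% of probe sets for 35S:AGL15 and 10.5% for the double mutant, and groups lay apart in the higher direction for 8.23% and 15.8% of all probe sets. The contrasts with wild type were used to choose the gene, and nothing is read from these shares.

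Replicates of AT4G17260 were close in every genotype, with a coefficient of variation of 2.98% for wild type, 6.60% for 35S:AGL15 and 12.6% for the double mutant. Its highest double mutant value was on replicate 1, the array on which FDH was lowest in that genotype. Both genes were highest within their genotype on wild type replicate 1 and on 35S:AGL15 replicate 2, arrays whose deviations from the group means went together over the brighter 60% of probe sets (r = 0.68). Across all 9 arrays the log2 values of FDH and AT4G17260 had a Pearson correlation of −0.54, a description over arrays that fall into 3 genotypes. The genotype at the low end was not the same for the 2 genes. As deposited, FDH set 35S:AGL15 apart from the other genotypes, and AT4G17260 set wild type apart, the patterns by which they were chosen.

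The scaling of the arrays bears on these values differently for the 2 genes. As deposited, all arrays share a trimmed mean, and the median log2 difference of all probe sets was −0.13 for 35S:AGL15 and −0.16 for the double mutant against wild type. Other scalings moved that median to 0.00 and 0.06 under quantile normalization, to 0.12 and 0.36 under median centring and to −0.31 and −0.89 under scaling on the spike-in controls. The share of lower among all calls moved too, from 62.6% as deposited to 48.7%, 42.1% and 72.4% in 35S:AGL15, from 79.4% to 56.3%, 27.9% and 98.8% in the double mutant, and from 33.6% to 47.7%, 67.6% and 6.14% between the altered genotypes. FDH in 35S:AGL15 against wild type was −3.33, −3.39, −3.08 and −3.51 on the log2 scale in the deposited, quantile, median-centred and spike-in scalings, with no overlap in any of these 4. In the double mutant FDH was −0.52, −0.60, −0.01 and −1.26 in the same order, and only under spike-in scaling did all 3 double mutant arrays lie below wild type.

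AT4G17260 in the double mutant depended on the scaling, with no clear direction left under spike-in scaling (SE 0.37). Its log2 difference from wild type was 0.72 as deposited, 0.49 under quantile normalization, 1.24 under median centring and −0.01 under spike-in scaling, where the groups overlapped. In 35S:AGL15 the difference was 0.65, 0.57, 0.90 and 0.47 in the same order, above 0 throughout, with overlap under spike-in scaling. Relative to the median of all probe sets, the double mutant stood 0.88 above wild type as deposited and 0.43 above it under quantile normalization. Median centring and spike-in scaling shift all probe sets of an array by the same amount, so they cannot change a difference relative to that median. In 35S:AGL15 that relative difference was 0.78, or 0.57 under quantile normalization. For FDH it was −3.20 in 35S:AGL15 (−3.39 under quantile normalization) and −0.37 in the double mutant (−0.66). On the 5 wild type and 35S:AGL15 arrays with dimmer spike-in controls alone, FDH was at −3.18 and AT4G17260 at 0.68. Which of these scalings suits the arrays was not tested, and none was tested as a measure of RNA per culture.

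**Figure D2:**
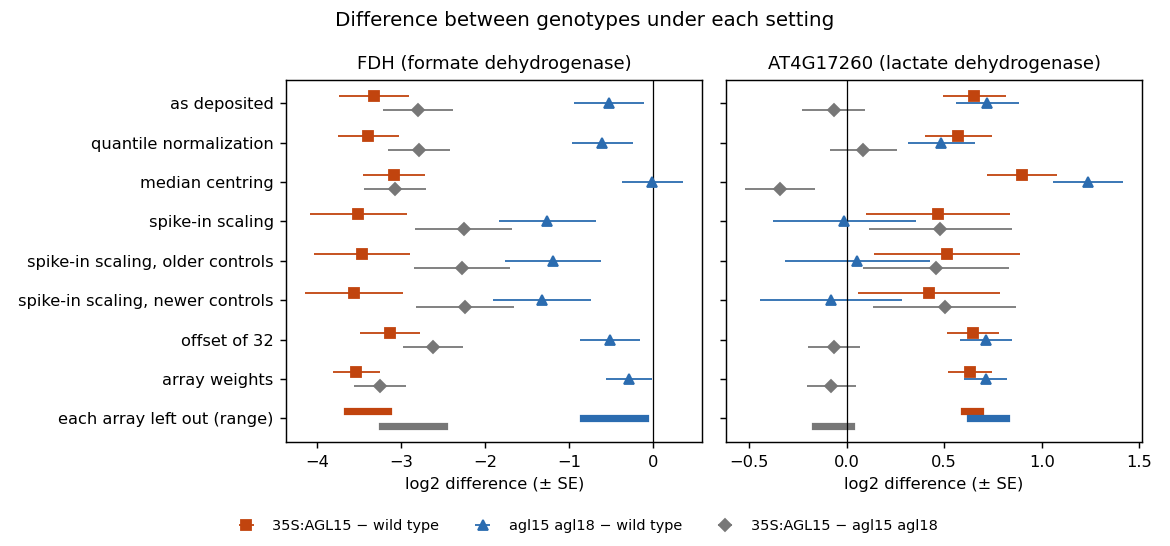
Log2 difference of FDH and of AT4G17260 between genotypes (horizontal axis, symbols with ± SE from limma) under each setting named on the left, and the range over leaving out each of the 9 arrays in turn (bars). FDH stays between −3.64 and −3.08 in 35S:AGL15 against wild type, whereas AT4G17260 in the double mutant runs from −0.08 under scaling on the newer spike-in controls to 1.24 under median centring.

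Enzymes that make or use formate were compared next, since FDH is one step of that network. Of 9 listed genes of formate and formaldehyde metabolism 5 had a probe set, and 0 of these 5 were called by limma in either altered genotype against wild type. At an unadjusted p under 0.05 there were 2 of 5 for 35S:AGL15 and 0 for the double mutant, beside 17.8% and 34.3% of all probe sets. In 35S:AGL15 against the double mutant there were 3 of 5, or 60%, beside 31.3% of all probe sets. The count of calls for 35S:AGL15 was 0 to 2 over 20 alternatives and different from 0 in 5 of them. For the double mutant it was 0 to 1 over 19 alternatives and different from 0 in 2. At the same threshold, limma with an adjusted p under 0.05 over all probe sets, 3.68% of probe sets were called for 35S:AGL15 and 18.9% for the double mutant. The median log2 difference of the 5 was −0.28 for 35S:AGL15 and −0.31 for the double mutant, beside −0.13 and −0.16 for all probe sets. AT5G17380, entered in the list as oxalyl-CoA decarboxylase, which splits oxalyl-CoA into formyl-CoA and CO2, had 2002, 1463 and 1583 in wild type, 1023, 1128 and 915 with 35S:AGL15, and 1501, 2125 and 2650 in the double mutant. The 35S:AGL15 arrays were below all others. The gene fell 2.00-fold in 35S:AGL15 against the double mutant (SE of the log2 difference 0.24, adjusted p = 0.0319), where 15.7% of probe sets were called, and its difference from wild type did not pass (log2 −0.71, adjusted p = 0.179). That call ended in 9 of 19 alternatives. Under spike-in scaling the log2 difference of AT5G17380 was −0.45 (limma adjusted p = 0.517). It was also lost in a fit of the 2 genotypes alone (adjusted p = 0.0855) and with the replicate block (adjusted p = 0.0738). The remaining losses came without wild type replicates 2 or 3, without 35S:AGL15 replicates 1 or 3, or without double mutant replicates 2 or 3.

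The other members of the list did not pass. AT4G17360, entered as a deformylase of 10-formyl-tetrahydrofolate that releases formate, was dim, with a mean of 84.1 ± 11.4 for wild type, 27.1 ± 15.0 for 35S:AGL15 and 52.3 ± 16.96 for the double mutant (SD, n = 3). Its log2 difference from wild type was −1.82 in 35S:AGL15 (adjusted p = 0.0821), and 2 of the 3 arrays lay above background in each altered genotype. Its paralogue in the list, AT5G47435, was at −0.28 in 35S:AGL15 (adjusted p = 0.579) and −0.31 in the double mutant (adjusted p = 0.41). The peptide deformylases PDF1A and PDF1B, which release formate from new organelle proteins, were at −0.08 and 0.11 in 35S:AGL15.

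Folate one-carbon metabolism and glycine cleavage, which handle the one-carbon units that can become formate, had 6 of 27 listed genes measured. None of the 6 was called by limma in any of the 3 comparisons (1, 1 and 0 at an unadjusted p under 0.05), with medians of −0.05, 0.02 and −0.10 for 35S:AGL15 against wild type, the double mutant against wild type and 35S:AGL15 against the double mutant, where 3.68%, 18.9% and 15.7% of all probe sets were called. An unadjusted p under 0.05 was found for 17.8%, 34.3% and 31.3% of all probe sets. The count for the double mutant depended on the setting, at 0 to 3 over 19 alternatives and different from 0 in 9 of them. For the double mutant 1 gene was called higher under quantile normalization, 2 were called higher under median centring and 1 was called lower under spike-in scaling. AT2G35120 and AT1G32470, both entered as H proteins of the glycine cleavage complex, stood on opposite sides of wild type in the double mutant, at 0.61 (adjusted p = 0.0781) and −0.57 (adjusted p = 0.173). The H protein AT2G35120 was 3689 ± 279 in wild type and 5669 ± 733 in the double mutant (SD, n = 3), without overlap. It passed the test in 7 of the 19 alternatives, among them median centring (log2 1.13, limma adjusted p = 0.0249), and stood at −0.12 under spike-in scaling (adjusted p = 0.81).

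The sequence relatives of both enzymes did not pass either, but few were measured. Of 7 D-2-hydroxyacid dehydrogenase relatives of FDH, 3 were measured and 0 called, also 0 at an unadjusted p under 0.05. Over all probe sets 3.68%, 18.9% and 15.7% were called for 35S:AGL15 against wild type, the double mutant against wild type and 35S:AGL15 against the double mutant. At these shares 0 calls in so few genes is not a result about the relatives. HPR, the peroxisomal hydroxypyruvate reductase of photorespiration (AT1G68010), was at −0.69 in 35S:AGL15 (adjusted p = 0.317). This value was −0.36 without 35S:AGL15 replicate 1 and −1.01 without 35S:AGL15 replicate 2, and with array weights it was −1.27 and passed (limma adjusted p = 0.00873), the only call in 20 alternatives. AN, the ANGUSTIFOLIA gene of cell shape, was at −0.16 in the double mutant (adjusted p = 0.688). Of 9 malate dehydrogenases, relatives of lactate dehydrogenase, 2 were measured and 0 called. At an unadjusted p under 0.05 there was 1, in 35S:AGL15 against the double mutant, beside 31.3% of all probe sets. The plastid NAD-dependent enzyme AT3G47520 was at 0.37 in the double mutant (adjusted p = 0.292) and the plastid NADP-dependent enzyme AT5G58330 at 0.21 (adjusted p = 0.4).

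Around lactate, 6 of 15 listed genes of lactate, glycolate and methylglyoxal metabolism were measured. Of these 6, 1 was called, in the double mutant, or 16.7%, beside 18.9% of all probe sets. AT5G06580, entered as D-lactate dehydrogenase, which oxidises the D-lactate formed from methylglyoxal, fell 1.82-fold in the double mutant (270.6 ± 10.9 in wild type against 150.5 ± 28.6, SD, n = 3, log2 −0.86, adjusted p = 0.041). Its 3 double mutant arrays, at 148, 180 and 123, lay below the 3 wild type arrays, at 271, 281 and 259. The list had 0 calls in the other comparisons, where 3.68% and 15.7% of all probe sets were called. At an unadjusted p under 0.05 the list had 0 for 35S:AGL15 against wild type and 1 for 35S:AGL15 against the double mutant, beside 17.8% and 31.3% of all probe sets. Its median was 0.06 for 35S:AGL15 and −0.19 for the double mutant, against −0.13 and −0.16 over all probe sets. The call of AT5G06580 ended in 8 of 19 alternatives. Under quantile normalization its log2 difference was −0.38 (limma adjusted p = 0.198) and under median centring −0.34 (adjusted p = 0.236). It was also lost without any single wild type array, without 35S:AGL15 replicate 1, or without double mutant replicates 1 or 3, and each of these omissions left 0 called members in the 6 lists for the double mutant.

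Fermentation and pyruvate metabolism, the branch that competes with lactate dehydrogenase for pyruvate, had 4 of 19 listed genes measured and 0 called by limma in any comparison, also 0 at an unadjusted p under 0.05. PDC2, a pyruvate decarboxylase of ethanol fermentation, was at 0.07 for 35S:AGL15 and 0.36 for the double mutant. ACS, the acetyl-CoA synthetase, was at −0.42 in 35S:AGL15 (adjusted p = 0.375), ALDH2C4, an aldehyde dehydrogenase, at −0.43 in the double mutant (adjusted p = 0.174), and MAB1, a pyruvate dehydrogenase subunit, at 0.06 and 0.05. The alcohol dehydrogenase gene and the other pyruvate decarboxylases were not analysed here. Across the 6 lists of metabolism, 26 of 86 genes were measured and 0, 1 and 1 were called in the 3 comparisons in the order above, or 0%, 3.85% and 3.85%, beside 3.68%, 18.9% and 15.7% of all probe sets. At an unadjusted p under 0.05 it was 3, 2 and 5 of the 26, or 11.5%, 7.69% and 19.2%, beside 17.8%, 34.3% and 31.3% of all probe sets. Those of the 26 that were called are AT5G06580 and AT5G17380.

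AT4G17260 belongs by background to the low-oxygen response, so a list of 41 other hypoxia-response genes was examined, of which 21 were measured. The list was chosen with earlier results of these data known, so nothing about AT4G17260 is read from its shares. In 35S:AGL15 against wild type 5 of the 21 rose and 0 fell, or 23.8% and 0%, beside 1.38% and 2.31% of all probe sets. The median log2 difference of the 21 was 0.65, beside −0.13 for all probe sets, and 17 lay above 0. CML38, a calmodulin-like calcium sensor of the hypoxia response, rose 3.78-fold (515, 741 and 1278 in wild type against 3272, 2368 and 3394, log2 1.92, adjusted p = 0.0314). AT3G23170 rose 3.96-fold (1049, 1277 and 2077 against 5740, 3709 and 8147, log2 1.99, adjusted p = 0.0221). AT5G42200 was 2.34-fold higher (adjusted p = 0.0193), AT1G33055 was 2.17-fold higher (adjusted p = 0.0164) and AT1G74940 was 2.03-fold higher (adjusted p = 0.0308).

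In the double mutant against wild type 4 of the 21 rose and 1 fell, or 19.0% and 4.76%, beside 3.9% and 15% of all probe sets. The median was 0.27, beside −0.16 for all probe sets, and 15 of the 21 lay above 0. The calls were AT3G23170, 3.85-fold higher (adjusted p = 0.00845), AT1G33055, 2.53-fold higher (adjusted p = 0.00361), AT5G42200, 2.29-fold higher (adjusted p = 0.00743), AT4G33560, 1.63-fold higher (adjusted p = 0.0453), and AT3G29970, 2.29-fold lower (adjusted p = 0.0197). Between 35S:AGL15 and the double mutant 3 of the 21 were higher in 35S:AGL15 and 1 lower, or 14.3% and 4.76%, beside 10.4% and 5.27% of all probe sets. The higher were AT1G26270 (log2 1.17, adjusted p = 0.0332), AT1G19530 (1.06, adjusted p = 0.0238) and AT1G74940 (0.95, adjusted p = 0.019), and the lower was AT4G33560 (−0.73, adjusted p = 0.0443). The median of the list in that comparison was 0.10, beside 0.08 for all probe sets.

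These hypoxia counts rest on few arrays, as do the counts over all probe sets. In 35S:AGL15 against wild type 0 of the 21 were called without wild type replicates 1 or 2 or without 35S:AGL15 replicate 1, 1 without 35S:AGL15 replicate 3 and 3 without wild type replicate 3. Over all probe sets the calls fell from 838 to 192, 191 and 422 without wild type replicates 1, 2 and 3. They fell to 195 and 566 without 35S:AGL15 replicates 1 and 3. Against wild type, 3 were called in the double mutant without wild type replicate 2 or without double mutant replicates 1 or 3. Those omissions took the calls over all probe sets from 4304 to 1829, 3073 and 2243. Between the altered genotypes 0 were called without 35S:AGL15 replicate 1 or double mutant replicate 1, 1 without double mutant replicates 2 or 3, and 2 without any single wild type array or without 35S:AGL15 replicate 2. Over all probe sets the calls there fell from 3567 to 1032 without 35S:AGL15 replicate 1 and to 2007 without double mutant replicate 1. Without 35S:AGL15 replicate 2 they rose to 4192. Under spike-in scaling 0 were called in 35S:AGL15 (median 0.47) and 2 in the double mutant, where the median fell to −0.47 with 17 of the 21 below 0, beside −0.89 for all probe sets. On the 5 arrays with dimmer spike-in controls 0 of the 21 were called in 35S:AGL15, where 47 probe sets were called in all. Calls in 35S:AGL15 against wild type were lost in 9 of 20 alternatives for CML38 (AT1G76650), 8 for AT5G42200 and 7 for AT1G33055 and AT3G23170. In the double mutant against wild type AT3G23170 kept its call in all 19, AT1G33055 and AT5G42200 lost it in 1 and AT3G29970 in 5. Between the altered genotypes it was lost in 14 of 19 for AT4G33560, 11 for AT1G26270 and 5 for AT1G19530 and AT1G74940.

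**Figure D3:**
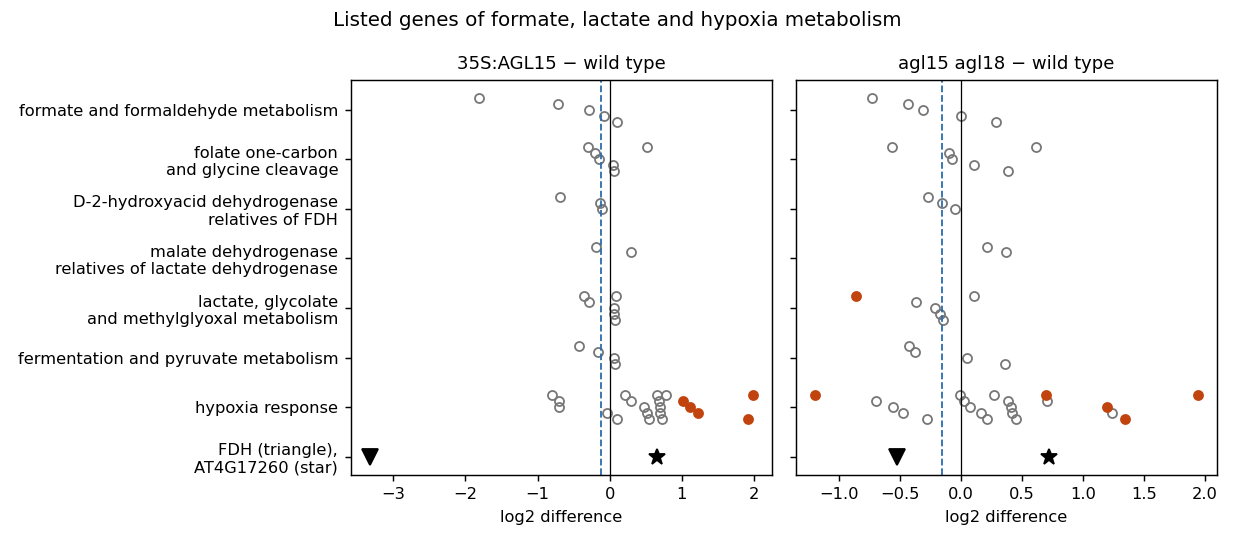
Log2 difference from wild type in 35S:AGL15 (left) and the double mutant (right) for each measured gene of 7 lists, with filled points for genes called by limma, open points for the rest, a dashed line at the median of all probe sets, and FDH and AT4G17260 in the bottom row, which carries no test. FDH at −3.33 lies beyond every listed gene in 35S:AGL15, and the hypoxia list holds the called points on the right of both panels, up to 1.99 and 1.94.

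Markers of cell types in the cultures were compared for the same arrays. Of 18 shoot meristem and embryo markers 4 were measured, and their summed intensity was 672 to 1009 for wild type, 1991 to 3216 for 35S:AGL15 and 966 to 1606 for the double mutant. OLEO3, an oil body protein of seeds, rose 6.21-fold in 35S:AGL15 (adjusted p = 0.0127) and PAP85, a storage protein, 4.48-fold (adjusted p = 0.0382), in a comparison with 1.38% of all probe sets called higher. Over 20 alternatives the call was lost in 9 for PAP85 (AT3G22640), among them spike-in scaling (limma adjusted p = 0.166), and in 4 for OLEO3 (AT5G51210), with adjusted p up to 0.0668. BBM, an embryo transcription factor gene, was at 0.03 in 35S:AGL15, and the meristem peptide gene CLV3 lay below background on all 9 arrays. No other shoot meristem marker was analysed here, so the sum does not speak for the meristem. The largest part of that sum was BBM in wild type (mean 485) and OLEO3 in 35S:AGL15 (mean 1931). Of 14 leaf photosynthesis markers 3 were measured, with a summed intensity of 3892 to 5428 for wild type, 2717 to 3907 for 35S:AGL15 and 4232 to 4952 for the double mutant. The 3 did not move together in the double mutant, where 15% of all probe sets were called lower than in wild type. PRK, the phosphoribulokinase of the Calvin cycle, fell against wild type (log2 −1.14, adjusted p = 0.00872), LHCB4.2, a light-harvesting protein of photosystem II, was at 0.66 without overlap (adjusted p = 0.16), and RCA, the Rubisco activase, at −0.05 (adjusted p = 0.903). The largest part of the leaf sum was RCA, with means of 3236, 2295 and 3127 in wild type, 35S:AGL15 and the double mutant. In 35S:AGL15 against the double mutant, where 15.7% of all probe sets were called, PRK was higher (log2 0.85, adjusted p = 0.0292) and LHCB4.2 lower (−1.06, adjusted p = 0.0491). Of these, the call of LHCB4.2 (AT3G08940) was lost in 12 of 19 alternatives and that of PRK (AT1G32060) in 8 of 19. Of 11 root markers 2 were measured, with sums of 151 to 246, 248 to 341 and 224 to 304, and 0 were called (1 in each altered genotype against wild type at an unadjusted p under 0.05). Against wild type 3.68% of all probe sets were called for 35S:AGL15 and 18.9% for the double mutant, and 17.8% and 34.3% had an unadjusted p under 0.05. No marker was listed at 0. The part of a different cell make-up in the FDH and AT4G17260 values was not tested.

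The genes most like each member across the 9 arrays were found by Pearson correlation of log2 intensity over the brighter 7371 genes. Genes picked this way share the genotype pattern of their member by the choice, so their levels are a description. With FDH, 68 genes had a correlation above 0.9. The 5 highest were AT3G52500 (0.988), AT4G12490 (0.980), AT2G39210 (0.978), AT1G62760 (0.976) and MSRB5 (0.970), a methionine sulfoxide reductase that repairs oxidised proteins. All 5 had their lowest values in 35S:AGL15, and their 35S:AGL15 minus wild type differences ran from −0.97 for AT3G52500 to −3.27 for AT4G12490. AT4G12490 had 885, 577 and 695 in wild type, 80.2, 93.4 and 53.2 in 35S:AGL15 and 354, 1151 and 911 in the double mutant. Like FDH, it was lowest in its group on double mutant replicate 1 and highest on double mutant replicate 2.

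With AT4G17260, 16 genes had a correlation above 0.9. The 5 highest were AT1G73620 (0.967), AT1G33055 (0.956), AT1G63840 (0.942), AT4G34290 (0.942) and AT4G29780 (0.942). AT1G33055 is also a member of the hypoxia list. Its values were 2773, 2388 and 3254 in wild type, 6079, 6010 and 6018 in 35S:AGL15 and 7875, 6688 and 6656 in the double mutant, so that, as for AT4G17260, wild type was the low genotype. All 5 lay above wild type in both altered genotypes, by 0.65 to 1.12 on the log2 scale in 35S:AGL15 and by 0.82 to 1.34 in the double mutant. The genes were picked by these correlations, and the 9 arrays share their genotypes and scaling. The correlations and the shared low wild type therefore describe likeness and carry no p. For these 10 genes the correlations with FDH were 0.883 to 0.980 and those with AT4G17260 0.767 to 0.942 under spike-in scaling, and under quantile normalization 0.966 to 0.983 and 0.768 to 0.917.

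**Figure D4:**
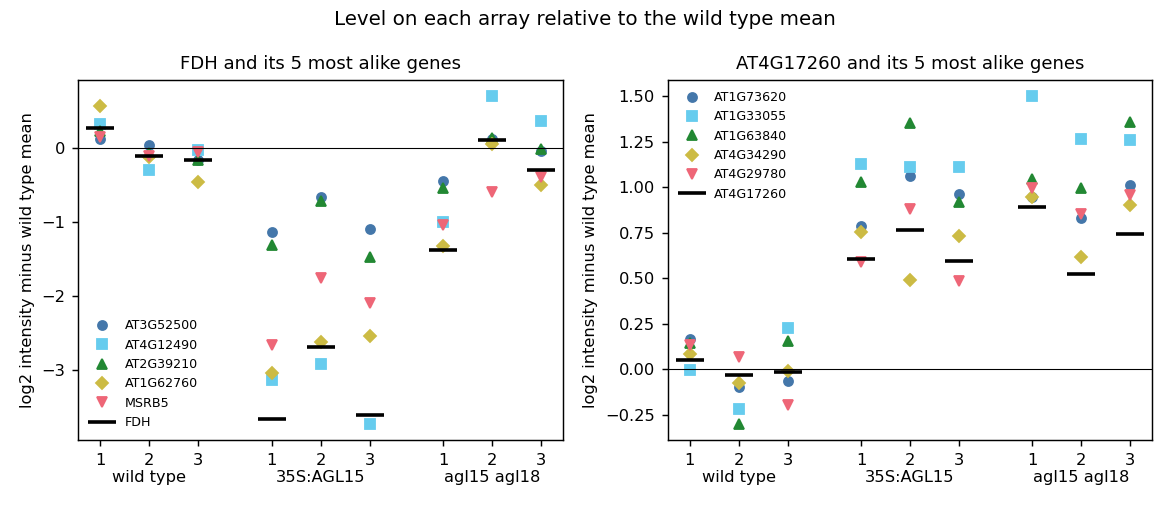
Log2 intensity on each array minus the wild type mean of the gene, for FDH (left) and AT4G17260 (right) as black bars and for the 5 genes most correlated with each as coloured points, by genotype and replicate. The FDH group is lowest in the 35S:AGL15 arrays and dips on double mutant replicate 1, and the AT4G17260 group is raised on all 6 arrays of the altered genotypes.

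The genes next to each member in the order of the TAIR10.1 gene table were examined last, a choice made after the values were seen. Of the 5 protein-coding genes on each side of FDH 4 had a probe set and 0 were called by limma in any comparison, with 2 at an unadjusted p under 0.05 in the double mutant against wild type, where 34.3% of all probe sets had one, and 0 in the others. Among the 4, AT5G14860 lay above background on 1, 0 and 1 of 3 arrays in wild type, 35S:AGL15 and the double mutant. For AT5G14770 it was 3, 2 and 0. Beside AT4G17260, 6 of 10 had a probe set, with calls for 0 between 35S:AGL15 and wild type, for 2 between the double mutant and wild type and for 2 between the altered genotypes. The 2 of 6, or 33.3%, stand beside 18.9% and 15.7% of all probe sets called in these comparisons. AT4G17240 fell in the double mutant from 265.6 ± 1.31 to 54.3 ± 4.74 (SD, n = 3, log2 −2.29, adjusted p = 0.0023) and AT4G17245 rose from 58.3 ± 3.55 to 157 ± 52.6 (log2 1.38, adjusted p = 0.0376). AT4G17250 and AT4G17270, the nearest measured genes on either side, were not called. Of these, AT4G17250 lay above background on 3, 2 and 1 of 3 arrays in wild type, 35S:AGL15 and the double mutant.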

How the data were processed

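The authors deposited 1 linear array intensity per probe set for each of the 9 arrays. The deposited intensities ran from 0.0293 to 33792 with no negative value, and their mean, trimmed by 2% at each end, was 500.04 to 500.06 on every array. Per the labels' protocols, RNA was extracted with Trizol and an RNeasy kit, and biotin-labelled cRNA was made from 4 µg. How probe intensities were summarised and background-corrected is not given in the sources used here, and the number of arrays limits the precision.

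The 64 control probe sets were left out. The deposited intensities of the other 22746 were converted to log2 without an offset, and group means were fitted over all 9 arrays with limma 3.58.1 (lmFit, eBayes) in R 4.3.3. Two-sided p-values were adjusted by Benjamini-Hochberg over the 22746 probe sets of a comparison, and "rose", "fell" and "called" mean an adjusted p under 0.05. FDH and AT4G17260 were given no test. Folds are ratios of geometric means, and standard errors are those of limma. The fit was tested on simulated data.

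In the array annotation, updated with the reference gene table of assembly TAIR10.1, 13513 probe sets have 1 gene, 503 have several and 8730 have none. A gene is represented by its brightest probe set, and sequences and genome positions were not used here. The 2 members and the 10 gene lists (170 genes, 56 measured) were chosen with earlier results of these data known. Genes were named by a rule. It took up to 4 called members of a list per comparison, or up to 2 uncalled ones with the largest change, and the 5 genes most correlated with each member. Other list members were named after their values were seen.

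Whether replicate numbers pair arrays was checked on deviations from the group means. Of the 9 same-numbered pairs, 0 correlated above 0.1 over all probe sets, and 3 of the 9 did over the brighter 60%, so arrays were not paired by number. Over the brighter 60%, pairs of arrays from different genotypes ran from −0.64 to 0.68, so some arrays share deviations that the fit leaves out. Alternatives were quantile normalization, median centring, scaling on 18 spike-in control probe sets, an offset of 32, leaving out the dimmest 40% of probe sets, raising low values to background, fitting only the 2 groups compared, an intensity trend, a replicate block, array weights and leaving out each array in turn. Scaling on the 9 older or the 9 newer spike-in controls alone, and the 5 arrays with dimmer spike-in controls, were added after seeing the data.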

Additional observations from a re-analysis of the deposited data

How the results depend on the processing

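Counts are given in the order 35S:AGL15 against wild type, double mutant against wild type, and 35S:AGL15 against double mutant. The fit called 838, 4304 and 3567 probe sets, 5, 5 and 4 of the 21 hypoxia genes and 0, 1 and 1 of the 26 metabolic genes. Spike-in scaling gave 239, 6466 and 2314 probe sets, 0, 2 and 2 hypoxia genes and 0, 4 and 0 metabolic genes. Quantile normalization gave 815, 3734 and 3198, then 6, 4 and 3, then 0, 1 and 1, and the 1 gene of the double mutant was then in the folate list and no longer AT5G06580. Array weights gave 6467, 9169 and 7921, then 13, 10 and 6, then 4, 6 and 7. Fits on the 2 groups alone gave 427, 5437 and 867, then 1, 5 and 0, then 0, 2 and 0. The replicate block gave 320, 3343 and 2066, then 1, 4 and 2, then 0, 1 and 0, and left the FDH and AT4G17260 differences as they were. An offset of 32 gave 1525, 5839 and 4983, then 7, 7 and 7, then 1, 2 and 1. Raising low values gave 1417, 5099 and 4123, then 5, 6 and 5, then 1, 1 and 1. The dim filter gave 1134, 5010 and 4472, then 7, 7 and 7, then 0, 2 and 1. The intensity trend gave 1236, 5457 and 4731, then 7, 7 and 7, then 1, 2 and 1. Median centring gave 698, 5658 and 3738, then 5, 10 and 2, then 0, 6 and 1. The 5 arrays with dimmer spike-in controls gave 47 probe sets and 0 hypoxia genes for the first comparison.

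Leaving out each array in turn gave 191 to 1867, 1829 to 5673 and 1032 to 4192 probe sets, 0 to 5, 3 to 6 and 0 to 5 hypoxia genes, and 0 to 1, 0 to 2 and 0 to 1 metabolic genes. Omitting wild type replicate 1, 2 or 3 gave 192, 191 or 422 for the first count and 2352, 1829 or 2433 for the second. Omitting 35S:AGL15 replicate 1 or 2 gave 195 or 1867 for the first, and omitting double mutant replicate 3 gave 2243 for the second. The third was 2153 without wild type replicate 2, 1032 without 35S:AGL15 replicate 1, and 2007, 2042 and 1162 without double mutant replicates 1, 2 and 3. FDH then ran from −3.64 to −3.16, −0.84 to −0.10 and −3.23 to −2.49, and AT4G17260 from 0.60 to 0.68, 0.63 to 0.82 and −0.16 to 0.02.

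AT4G17260 in 35S:AGL15 against wild type moved from 0.65 to 0.90 under median centring and to 0.47, 0.52 and 0.42 under scaling on all, older and newer spike-in controls. In the double mutant it moved from 0.72 to 0.49 under quantile normalization and 1.24 under median centring, and to −0.012, 0.055 and −0.080 under the spike-in scalings. Between the altered genotypes it moved from −0.06 to 0.086 under quantile normalization, −0.34 under median centring and 0.48, 0.46 and 0.50 under the spike-in scalings. FDH in the double mutant moved from −0.52 to −1.26, −1.19 and −1.32 under the spike-in scalings, and FDH between the altered genotypes from −2.80 to −2.23 under the newer controls. The causes were not tested. Over the list members and comparisons picked by the naming rule, 427 of 579 alternative values kept direction and side of the threshold, 130 lost the call, 16 gained one and 6 turned direction without a call. Some of these pairs were not called as deposited, so the 130 losses come from a part of the 579. AGL18, the neighbour genes, AT1G74940 in 35S:AGL15 against wild type and AT4G33560 in the double mutant against wild type were not covered. With 3 arrays a genotype and 26 of 86 metabolic genes measured, the lists speak for their measured members only.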
